A study of Mus musculus with 12 samples.

Results

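Immediate early response genes were followed in peritoneal macrophages of mice that differed in genotype and diet. The list was given by name: Fos, Fosb, Jun, Junb, Egr1, Atf3, Nr4a1, Ier2, Dusp1 and Zfp36. All 10 were among the 12339 genes of the deposited count table, and all passed the low-count filter. The mice were wild type (WT) or carried a genotype labelled meKO. The series title names protein kinase C epsilon in myeloid cells, so meKO is read here as a myeloid knockout of its gene, Prkce; the promoter that drives the deletion is not given in the sources used here. At 8 weeks of age all mice, controls included, were given the same treatment, and they then stayed on chow or received a high-fat Western diet (HFD). Then, 4 weeks later, sterile thioglycolate was used to draw macrophages into the peritoneum and the cells were lavaged. Each combination of genotype and diet had 3 libraries, 12 in all. Replicate numbers were assigned here, within each group in the order of the sample titles, which give none.

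Immediate early genes are transcribed soon after a cell is stimulated, from factors already present and without new protein synthesis. Mitogen-activated protein kinases, which lie downstream of protein kinase C among other signals, act on serum response factor with its Elk partners and on CREB at their promoters. Fos, Fosb, Jun and Junb encode subunits of the dimeric transcription factor AP-1, and Atf3 encodes a related factor that restrains cytokine genes in macrophages. Egr1 and Nr4a1 encode a zinc finger factor and an orphan nuclear receptor. Dusp1, a phosphatase of the same kinases, and Zfp36 (tristetraprolin), which speeds the decay of AU-rich mRNAs such as that of Tnf, are feedback inhibitors, and Ier2 encodes a small nuclear protein.

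The RefSeq promoter table (GRCm38.p6) held 8 of the 10 genes; Egr1 and Ier2 were not matched. The 250 bases before the transcription start are shown for the 4 genes that rose on HFD in WT (Fos, Junb, Dusp1 and Zfp36), for Jun, which fell, and for Nr4a1, which did not pass the test. Capitals mark matches, on either strand, to any of 6 motifs: the CArG box bound by serum response factor, the cyclic AMP response element (CRE) TGACGTCA, its core TGACG, the AP-1 site TGANTCA, the EGR site GCGNGGGCG and the NR4A site AAAGGTCA. Every CRE also holds the core, so those matches overlap. The Nr4a1 window lies at a start inside the span of the gene, as the table gives it.
Fos, chr12:85473640-85473889, plus strand: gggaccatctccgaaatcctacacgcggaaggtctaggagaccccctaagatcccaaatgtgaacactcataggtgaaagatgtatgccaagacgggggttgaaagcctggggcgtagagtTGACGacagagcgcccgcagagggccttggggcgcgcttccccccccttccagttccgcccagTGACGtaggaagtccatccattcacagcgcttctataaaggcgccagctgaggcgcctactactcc
Junb, chr8:84978749-84978998, minus strand: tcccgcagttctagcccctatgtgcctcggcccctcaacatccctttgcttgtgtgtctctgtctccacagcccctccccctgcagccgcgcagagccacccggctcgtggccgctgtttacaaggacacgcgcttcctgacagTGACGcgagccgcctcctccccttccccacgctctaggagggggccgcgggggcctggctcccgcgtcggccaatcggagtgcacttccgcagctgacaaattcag
Dusp1, chr17:26508473-26508722, minus strand: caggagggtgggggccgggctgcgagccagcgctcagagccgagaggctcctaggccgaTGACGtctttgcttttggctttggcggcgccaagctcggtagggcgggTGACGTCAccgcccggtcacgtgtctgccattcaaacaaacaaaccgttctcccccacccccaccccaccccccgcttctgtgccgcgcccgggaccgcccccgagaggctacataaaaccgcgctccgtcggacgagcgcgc
Zfp36, chr7:28379229-28379478, minus strand: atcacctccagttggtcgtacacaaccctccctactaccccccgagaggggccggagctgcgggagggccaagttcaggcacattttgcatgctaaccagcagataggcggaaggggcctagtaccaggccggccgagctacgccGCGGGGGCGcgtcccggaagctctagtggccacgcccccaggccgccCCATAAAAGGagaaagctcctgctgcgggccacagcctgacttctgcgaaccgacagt
Jun, chr4:95052223-95052472, minus strand: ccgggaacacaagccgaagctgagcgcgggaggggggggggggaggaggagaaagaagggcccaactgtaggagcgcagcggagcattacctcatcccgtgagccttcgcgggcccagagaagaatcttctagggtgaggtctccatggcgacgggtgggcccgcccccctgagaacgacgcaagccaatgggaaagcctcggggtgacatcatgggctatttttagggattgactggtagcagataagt
Nr4a1, chr15:101266596-101266845, plus strand: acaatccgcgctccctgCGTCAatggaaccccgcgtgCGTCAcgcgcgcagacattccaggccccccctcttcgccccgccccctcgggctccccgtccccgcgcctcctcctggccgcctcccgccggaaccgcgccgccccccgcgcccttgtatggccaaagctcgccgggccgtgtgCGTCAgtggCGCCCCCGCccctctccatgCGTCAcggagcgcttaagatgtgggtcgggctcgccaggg
The CRE core was found in 6 of the 8 windows (Fos, Fosb, Junb, Atf3, Nr4a1 and Dusp1), and in 19.8% of the 27025 genes with a promoter in that table. The full CRE was found in Dusp1, and in 1.77% of all genes. The CArG box was found in Zfp36, and in 1.62% of all genes. EGR sites were found in Fosb, Nr4a1 and Zfp36, and in 5.33% of all genes. AP-1 and NR4A sites were found in 0 of the 8 windows, and in 7.82% and 1.55% of all genes. Jun had no match to the 6 motifs in this window. Bases outside these windows were not searched, so a gene without a match here may hold one elsewhere. The matches describe these letters and say nothing of binding in these cells.

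Library totals ran from 25845000 to 37282800 counts over the listed genes. Prkce stood between 2.01 and 4.44 CPM (a gene's counts scaled to a fixed library total, with TMM factors) in the 6 WT libraries and between 0.95 and 1.78 CPM in the 6 meKO libraries, with no overlap. All 8 macrophage markers were detected, with Adgre1 at 513 to 697 CPM and Csf1r at 473 to 844 CPM. In WT on HFD 1 of the 8 fell (Mertk, -0.65, edgeR adjusted p = 0.0183). Another rose (Cd14, 0.42, edgeR adjusted p = 0.0399, or 0.35 with the length and GC correction). In that contrast 21.3% of all genes passed in either direction. Averaged over genotypes 4 fell and 2 rose, where 30.2% of all genes passed in either direction. With the length and GC correction 2 fell and 1 rose in that average, where 24.2% of all genes passed. Lyz2 was at 30500 to 53800 CPM in the 6 WT libraries, at 16300 to 21300 CPM in 5 meKO libraries and at 69.3 CPM in meKO chow replicate 2. That library stands apart in Lyz2, while its Prkce level (0.95 CPM) was the lowest of the 12, and whether its label is right was not tested. Without it the numbers of the 10 genes called by edgeR, given below for all libraries, were 5 for diet in WT, 0 for diet in meKO, 5 for diet averaged over genotypes and 0 in each genotype contrast. WT chow replicates 1 and 2 stood apart in transcript length: across genes, Spearman's rho of transcript length with how far a gene lay from its mean was 0.60 and 0.65 there, against -0.43 to 0.12 in the other 10 libraries. Values that move with these libraries are given below. The labels do not say whether libraries of a group came from separate animals, so p-values measure the spread between these libraries.

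The 10 genes were expressed at very different levels, compared here as mean CPM per kilobase of the longest transcript over all 12 libraries. Atf3 was highest at 205, above 97.8% of the genes with a known length. Jun followed at 63.2 and Junb at 57.4, then Zfp36 at 31.2, Fos at 30.6, Ier2 at 19.8 and Dusp1 at 14.4. Nr4a1 (2.79), Egr1 (0.998) and Fosb (0.314) were far lower, and Fosb rested on only 17 to 67 counts per library. Neighbours in this order overlapped across libraries for Jun (51.1 to 73.8) and Junb (41.9 to 75), and for Zfp36 (24.1 to 38.9) and Fos (17.4 to 46.7). Ier2 (14.9 to 24.4) overlapped with Fos and with Dusp1 (7.2 to 23.5), and Egr1 (0.425 to 1.53) overlapped with Fosb (0.138 to 0.533). Summed, the 10 genes made up 0.0779% to 0.113% of a library.

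**Figure D1:**
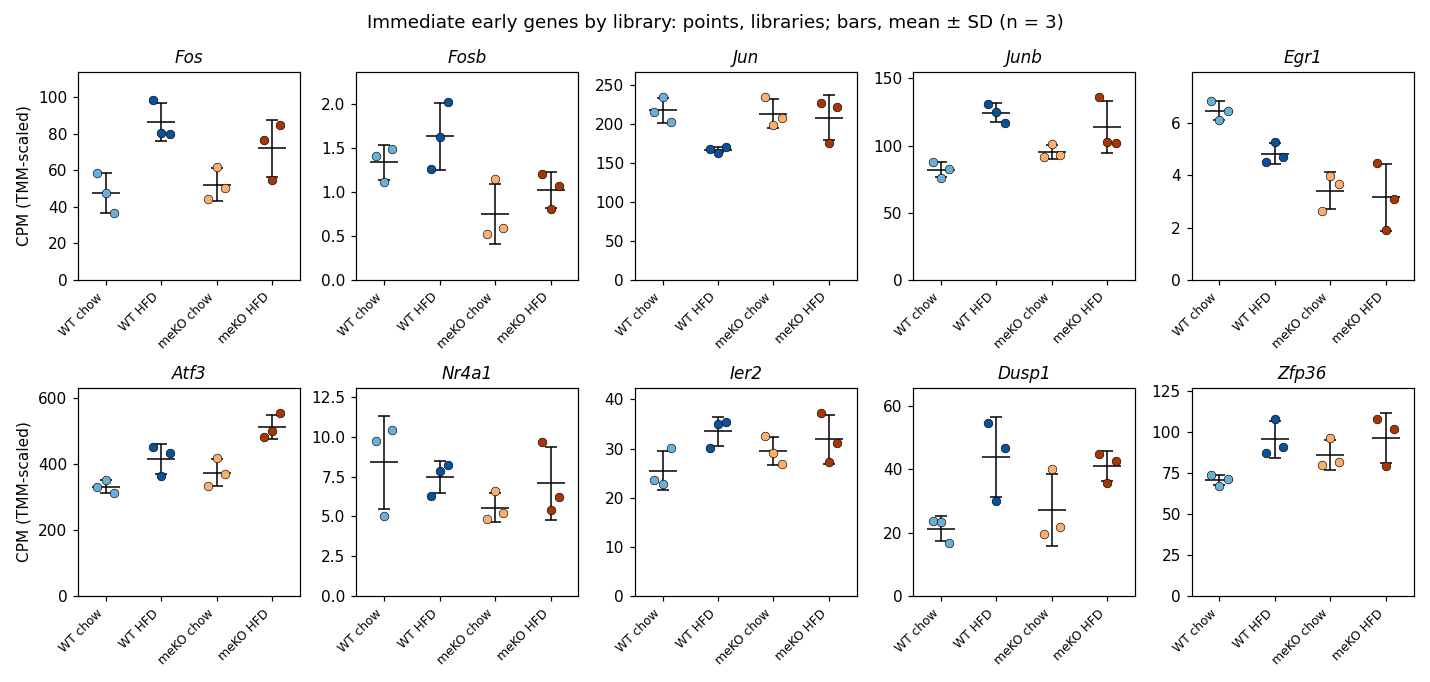
TMM-scaled CPM (vertical axes, linear, each from 0) of each gene in the 4 groups; points are libraries and bars the mean ± SD (n = 3). Fos, Junb, Atf3, Dusp1 and Zfp36 lie higher in all 3 WT HFD libraries than in all 3 WT chow libraries (19.4% of all genes). Jun and Egr1 lie lower there (19.9% of all genes), and Atf3 and Egr1 did not pass the test. Egr1 also lies lower in all 6 meKO libraries than in all 6 WT libraries (0.162% of all genes).

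The diets were compared to see how HFD bears on these genes. In WT, 4 of the 10 genes rose on HFD (Dusp1, Fos, Junb and Zfp36), 1 fell (Jun) and 5 did not pass the test. Among all 12339 genes 21.3% passed in either direction, 9.5% higher and 11.8% lower (edgeR quasi-likelihood test, Benjamini-Hochberg adjusted p under 0.05). At an unadjusted p under 0.05 there were 7, against 39.4% of all genes. All 3 WT HFD libraries lay above all 3 WT chow libraries for 5 of the 10 genes (19.4% of all genes) and below them for 2 (19.9%). The median log2 fold change was 0.36 over the 10 genes and -0.03 over all genes. In meKO 0 of the 10 passed in edgeR, where 0.105% of all genes did, and the median was 0.31 against -0.01 over all genes. In meKO 4 of the 10 had an unadjusted p under 0.05, against 15.9% of all genes; limma-voom called 0, and DESeq2 and voom with library quality weights 1 each (Atf3), where they called 1.84% and 3.23% of all genes. HFD libraries of meKO lay above all chow libraries for 2 of the 10 genes (Junb and Atf3; 10.3% of all genes). Averaged over both genotypes, 5 rose (Junb, Fos, Atf3, Dusp1 and Zfp36) and 0 fell, while 14.9% of all genes rose and 30.2% passed in either direction. There, 7 had an unadjusted p under 0.05 (43.7% of all genes).

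The count in WT moved with single libraries and with a correction for transcript length. It was 2 of 10 without WT chow replicate 1, where 129 of all genes passed, and 0 without WT chow replicate 2, where 319 passed. It was 1 without WT HFD replicate 1 (460 of all genes) and 1 without WT HFD replicate 3 (96 of all genes). With that correction, which also took in GC content, 2 passed (Junb and Zfp36), against 12.9% of all genes. The averaged contrast was steadier: Junb, Fos, Atf3 and Dusp1 passed in each of its 21 alternatives, and Zfp36 in 13 of them. All 5 passed with the length and GC correction, where 24.2% of all genes did.

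**Figure D2:**
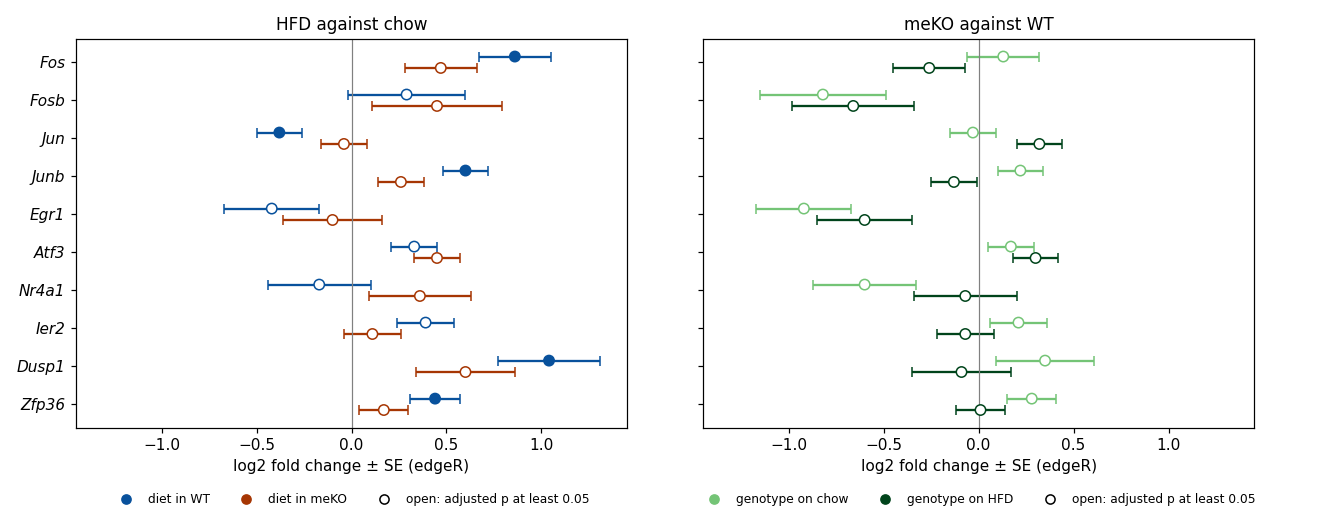
log2 fold change ± SE from edgeR for HFD against chow (left, WT and meKO) and meKO against WT (right, on chow and on HFD); filled points have an adjusted p under 0.05. The 5 filled points are all diet effects in WT: Fos 0.86, Jun -0.38, Junb 0.60, Dusp1 1.04 and Zfp36 0.44.

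Among the AP-1 subunits, Fos (Entrez gene 14281, chr12:85473890-85477274) is the partner that cannot form dimers with itself. The WT chow libraries had 58.7, 47.3 and 36.6 CPM of Fos, and the WT HFD libraries 98.5, 80.6 and 80 CPM. These groups did not overlap, which held for 39.3% of all genes in this contrast. The rise in WT was 0.86 ± 0.19 on the log2 scale (SE, 1.82-fold; edgeR adjusted p = 0.0159). In meKO Fos stood at 44.4, 61.7 and 50.2 CPM on chow and at 76.7, 54.5 and 84.8 CPM on HFD. There the groups overlapped through HFD replicate 2, and the log2 fold change was 0.47 ± 0.19 (edgeR adjusted p = 0.284). Averaged over genotypes Fos rose by 0.66 ± 0.14 (edgeR adjusted p = 0.00728). The WT result missed the threshold after the length and GC correction (0.69, edgeR adjusted p = 0.0589). Leaving out WT HFD replicate 1, WT HFD replicate 3 or WT chow replicate 2 also ended the call (highest adjusted p 0.0659 over its 22 alternatives).

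Junb (Entrez gene 16477, chr8:84976909-84978748), an AP-1 subunit that can hold back Jun activity, gave the smallest adjusted p of the list. It stood at 87.5, 75.9 and 82.7 CPM in WT chow, at 131, 125 and 117 CPM in WT HFD, at 91.6, 101 and 93.3 CPM in meKO chow and at 136, 103 and 102 CPM in meKO HFD. All 6 HFD libraries lay above all 6 chow libraries, which held for 2.99% of all genes. The rise was 0.60 ± 0.12 in WT (SE, 1.52-fold; edgeR adjusted p = 0.0114) and 0.43 ± 0.08 averaged over genotypes (edgeR adjusted p = 0.00622). In meKO it was 0.26 ± 0.12 (edgeR adjusted p = 0.312). The rise in WT passed in 21 of 22 alternatives and missed the threshold without WT chow replicate 2 (edgeR adjusted p = 0.0509). In GENCODE M21 the span of Junb overlaps that of Prdx2 on the other strand, which RefSeq does not show. The strand setting of the counting is unknown, and Prdx2 also rose in WT (0.78, edgeR adjusted p = 0.0266).

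Jun (Entrez gene 16476, chr4:95049036-95052222), the AP-1 subunit that can pair with itself or with Fos, went the other way in WT. Its WT chow libraries had 215, 235 and 203 CPM and its WT HFD libraries 168, 163 and 170 CPM, with no overlap. The fall was 0.38 on the log2 scale (-0.38 ± 0.12, SE; edgeR adjusted p = 0.0345). In meKO Jun stood at 234, 199 and 207 CPM on chow and at 227, 175 and 222 CPM on HFD, a log2 fold change of -0.04 ± 0.12 (edgeR adjusted p = 0.898). The call in WT was lost after the length and GC correction (-0.25, edgeR adjusted p = 0.0643). It was also lost on leaving out WT chow replicate 1, WT chow replicate 2 or any WT HFD library (highest edgeR adjusted p = 0.142). GENCODE places an antisense RNA gene, Junos, on the other strand of Jun. Fosb, a Fos paralogue at the low end of detection, averaged 1.34 ± 0.20 CPM on chow and 1.63 ± 0.377 CPM on HFD in WT (SD, n = 3) and did not pass on diet (0.29 ± 0.31, SE; edgeR adjusted p = 0.515).

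With Fos higher and Jun lower, the ratio of the 2 within a library shifted in WT. The ratios were examined after the values of both genes were seen, and are given as a description. They do not carry the length and GC correction. With it the diet effect in WT was 0.69 for Fos and -0.25 for Jun, neither passing (edgeR adjusted p = 0.0589 and 0.0643). That of Junb was 0.48 (edgeR adjusted p = 0.0213). Per kilobase of transcript, the Fos to Jun ratio was 0.413, 0.304 and 0.273 in WT chow and 0.885, 0.748 and 0.713 in WT HFD. In meKO it was 0.287, 0.47 and 0.366 on chow and 0.512, 0.471 and 0.576 on HFD. All 3 WT HFD libraries lay above the other 9. The Junb to Jun ratio averaged 0.668 ± 0.0858 in WT chow, 1.32 ± 0.087 in WT HFD, 0.792 ± 0.102 in meKO chow and 0.968 ± 0.137 in meKO HFD (SD, n = 3), and was again highest in the WT HFD libraries (1.22 to 1.37, against at most 1.05 elsewhere).

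**Figure D3:**
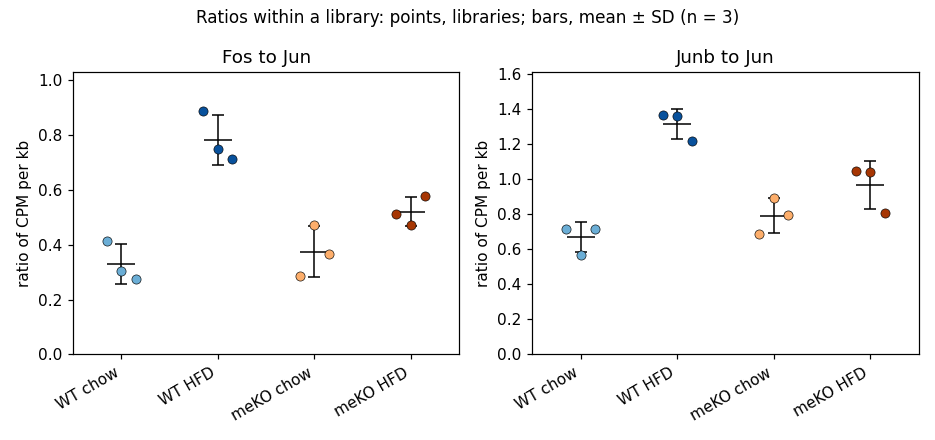
Ratio of CPM per kilobase of Fos to Jun (left) and Junb to Jun (right) within each library, on linear axes from 0; points are libraries and bars the mean ± SD (n = 3). The WT HFD libraries sit at 0.713 to 0.885 and at 1.22 to 1.37, above every library of the other groups.

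Atf3 (Entrez gene 11910, chr1:191170296-191183333), the most abundant of the 10, was higher on HFD in both genotypes. The WT libraries had 329, 351 and 312 CPM on chow and 449, 364 and 432 CPM on HFD. In meKO it stood at 333, 416 and 370 CPM on chow and at 482, 499 and 552 CPM on HFD. The diet groups did not overlap in either genotype, and the order of the group means was WT chow, meKO chow, WT HFD and meKO HFD, in which WT HFD overlapped meKO chow. Neither genotype passed by itself (WT 0.33 ± 0.12, SE, edgeR adjusted p = 0.0563, and meKO 0.45 ± 0.12, 0.14). Among 22 alternatives the WT rise passed in 5 and the meKO rise in 2 (DESeq2 and quality weights). Those 5 were median-of-ratios factors, the filter of 10 counts per library, DESeq2, quality weights and leaving out WT HFD replicate 2. Averaged over genotypes Atf3 rose by 0.39 ± 0.08 (SE, 1.31-fold; edgeR adjusted p = 0.00775; highest 0.0394 over its alternatives). In WT the value fell to 0.14 with the length and GC correction (edgeR adjusted p = 0.438), and the meKO value with that correction was 0.38 (0.146). GENCODE also places a small RNA gene, Gm24748, on the other strand within the span of Atf3.

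Of the feedback inhibitors, Dusp1 (Entrez gene 19252, chr17:26505591-26508472) had the largest fold change of the list. The WT libraries had 23.5, 23.4 and 16.7 CPM on chow and 54.5, 29.8 and 46.7 CPM on HFD. In meKO it stood at 19.5, 40.1 and 21.6 CPM on chow and at 44.8, 35.6 and 42.6 CPM on HFD. Chow replicate 2 of meKO lay within the HFD range, while the WT groups did not overlap. The rise was 1.04 ± 0.27 in WT (SE, 2.06-fold; edgeR adjusted p = 0.0218) and 0.82 ± 0.19 averaged over genotypes (edgeR adjusted p = 0.00974). In meKO it was 0.60 ± 0.26 (edgeR adjusted p = 0.3), and 0.99 without meKO chow replicate 2 (0.13). The call in WT was lost after the length and GC correction (0.97, edgeR adjusted p = 0.0561). Leaving out WT HFD replicate 1 or 3, or WT chow replicate 1 or 2, also ended it (highest edgeR adjusted p = 0.0899). The longest Dusp1 span in GENCODE overlaps Ergic1 on the other strand, whose diet effect in WT was -0.19 (edgeR adjusted p = 0.237).

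Zfp36 (Entrez gene 22695, chr7:28376784-28379228) had 73.6, 67.2 and 71.2 CPM in the WT chow libraries and 87.3, 108 and 90.9 CPM in the WT HFD libraries, without overlap. GENCODE places an antisense gene, Gm44710, on its other strand. In meKO the ranges were 79.8 to 96.1 CPM on chow and 79 to 108 CPM on HFD and overlapped. It rose by 0.44 ± 0.13 in WT (SE, 1.35-fold; edgeR adjusted p = 0.0352), and the length and GC correction gave 0.47 (edgeR adjusted p = 0.0217). Scaling to library totals ended the call, as did leaving out any WT HFD library, WT chow replicate 1 or WT chow replicate 2 (highest edgeR adjusted p = 0.119). Of 10 mRNAs listed as bound by tristetraprolin, 7 were measured, and edgeR called 0 in WT on diet (1 at an unadjusted p under 0.05; DESeq2 1, limma-voom 0, quality weights 2). Their median log2 fold change was 0.30, and -0.01 after the length and GC correction.

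Ier2 (Entrez gene 15936, chr8:84661331-84662852) had 23.7, 22.7 and 30.1 CPM in the WT chow libraries and 30.1, 34.9 and 35.5 CPM in the WT HFD libraries, and did not pass (0.39 ± 0.15, SE; edgeR adjusted p = 0.066). Nr4a1 (Entrez gene 15370, chr15:101253902-101274795) varied most within WT chow, from 5 to 10.4 CPM, and its diet effect was -0.17 ± 0.27 there (edgeR adjusted p = 0.663) against 0.36 ± 0.27 in meKO (0.509). Egr1 (Entrez gene 13653) had 6.85, 6.11 and 6.48 CPM in the WT chow libraries and 4.5, 5.3 and 4.72 CPM in the WT HFD libraries. The WT groups did not overlap, with HFD lower, but Egr1 did not pass on diet (-0.42 ± 0.25, edgeR adjusted p = 0.216), and the length and GC correction took the value to -0.12.

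**Figure D4:**
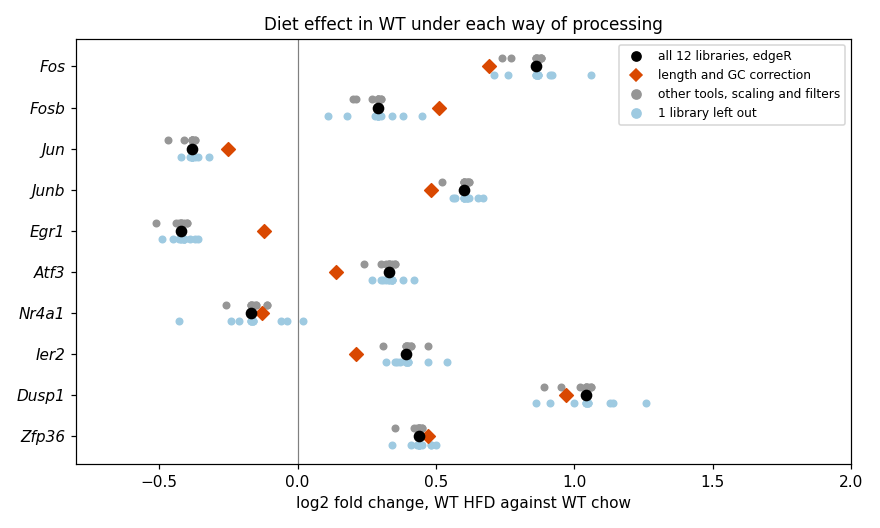
log2 fold change of each gene for WT HFD against WT chow (horizontal axis) under every way of processing: black, all 12 libraries in edgeR; orange diamonds, with length and GC correction; grey, other tools, scaling, filters or libraries; light blue, 1 library left out. The correction moved Atf3 from 0.33 to 0.14 and Egr1 from -0.42 to -0.12, and left Zfp36 (0.44 and 0.47) and Dusp1 (1.04 and 0.97) near their values.

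The genotypes were compared to see how deletion of Prkce in myeloid cells bears on these genes. In edgeR 0 of the 10 genes passed on either diet or averaged over diets, where 0.081%, 0.081% and 0.17% of all genes did. At an unadjusted p under 0.05 there were 3 on chow (against 19.8% of all genes), 3 on HFD (4.56%) and 3 in the average (17.7%). On chow DESeq2 and quality weights called 1 each (Egr1, lower), where they called 5.54% and 32.8% of all genes, and limma-voom 0. On HFD quality weights called 1 (Jun, higher; 1.04% of all genes) and DESeq2 and limma-voom 0. In the average DESeq2 called 1 (Egr1; 2.97% of all genes), limma-voom 0 and quality weights 3 (Egr1 and Fosb lower, Atf3 higher; 31.1% of all genes).

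Egr1 had the largest genotype difference of the list on chow and in the average; on HFD, and in the average with the length and GC correction, that of Fosb was larger (-0.66 and -0.70). Egr1 in the meKO libraries stood at 2.63, 3.96 and 3.66 CPM on chow and at 4.48, 1.91 and 3.1 CPM on HFD, so that all 6 lay below all 6 WT libraries (4.5 to 6.85 CPM), by a narrow margin between meKO HFD replicate 1 and WT HFD replicate 1. Such separation with meKO lower held for 0.162% of all genes. The log2 fold change was -0.92 ± 0.25 on chow (SE, edgeR adjusted p = 0.103), -0.60 ± 0.25 on HFD (edgeR adjusted p = 0.999) and -0.76 ± 0.18 averaged (edgeR adjusted p = 0.112; -0.67 after the length and GC correction). The averaged value passed with DESeq2, with quality weights, and in edgeR when meKO HFD replicate 1 or WT chow replicate 3 was left out (71 and 1400 of all genes then passed) (adjusted p range over its 21 alternatives 0.00298 to 0.312). Fosb was lower in meKO too, at 0.52, 1.14 and 0.588 CPM on chow and 1.2, 0.801 and 1.07 CPM on HFD, against 1.11 to 2.02 CPM in WT. Its averaged log2 fold change was -0.74 ± 0.23 (edgeR adjusted p = 0.166), and Nr4a1 had -0.34 ± 0.19 (edgeR adjusted p = 0.357). Both Egr1 and Fosb rested on few counts, 50 to 242 and 17 to 67 per library.

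On HFD, Jun was higher in meKO without overlap (0.32 ± 0.12, SE; edgeR adjusted p = 0.94), as was Atf3 (0.30 ± 0.12; edgeR adjusted p = 0.978). On chow, Junb (0.22 ± 0.12; edgeR adjusted p = 0.313) and Zfp36 (0.28 ± 0.13; edgeR adjusted p = 0.254) were higher in meKO without overlap. Egr1 was lower in meKO without overlap on both diets, and so was Fosb on HFD (-0.66 ± 0.32, edgeR adjusted p = 0.999). On chow 2 of the 10 genes were thus higher and 1 lower without overlap, against 17.1% of all genes in either direction. On HFD 2 were higher and 2 lower, against 10.3%. For Dusp1 the chow difference of 0.35 ± 0.26 became -0.03 without meKO chow replicate 2.

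Whether the diet effect itself differed between genotypes was tested with the interaction. In it 0 of the 10 genes passed in edgeR, where 0.0162% of all genes did, and 0 in DESeq2, limma-voom and with quality weights. At an unadjusted p under 0.05 there were 0 in edgeR, against 6.13% of all genes. By that measure DESeq2 had 2, limma-voom 0 and quality weights 3, and the share of all genes was not taken for these tools. The values nearest to a difference were those of Jun (0.35 ± 0.16, SE; unadjusted p = 0.052, edgeR adjusted p = 0.797) and Junb (-0.35 ± 0.17; unadjusted p = 0.0581, adjusted p = 0.797). Fos had -0.39 ± 0.27 and Dusp1 -0.45 ± 0.37. Hence the calls in WT and their absence in meKO do not show that the diet acted differently in the 2 genotypes.

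The genes differed in how far libraries of a group lay apart. The SD of log2 CPM within groups was 0.40 for Dusp1 and Nr4a1, 0.37 for Fosb, 0.35 for Egr1 and 0.28 for Fos, against a median of 0.21 over all genes. For Atf3 and Jun it was 0.13, for Junb 0.14, for Zfp36 0.17 and for Ier2 0.19. In both meKO groups, libraries were high or low for most of the list at once. In meKO HFD, replicate 1 was the highest of its group for 8 of the 10 genes and replicate 2 the lowest for 8. In meKO chow, replicate 2 was highest for 8 and replicate 1 lowest for 8. WT chow replicate 2 was lowest for 6, while in WT HFD no library was highest for more than 4 or lowest for more than 5. Over all genes each library was highest of its group for 24.7% to 43.2% and lowest for 24.5% to 42.3%. The high chow library and the low HFD library of meKO crossed for Fos, at 61.7 and 54.5 CPM.

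**Figure D5:**
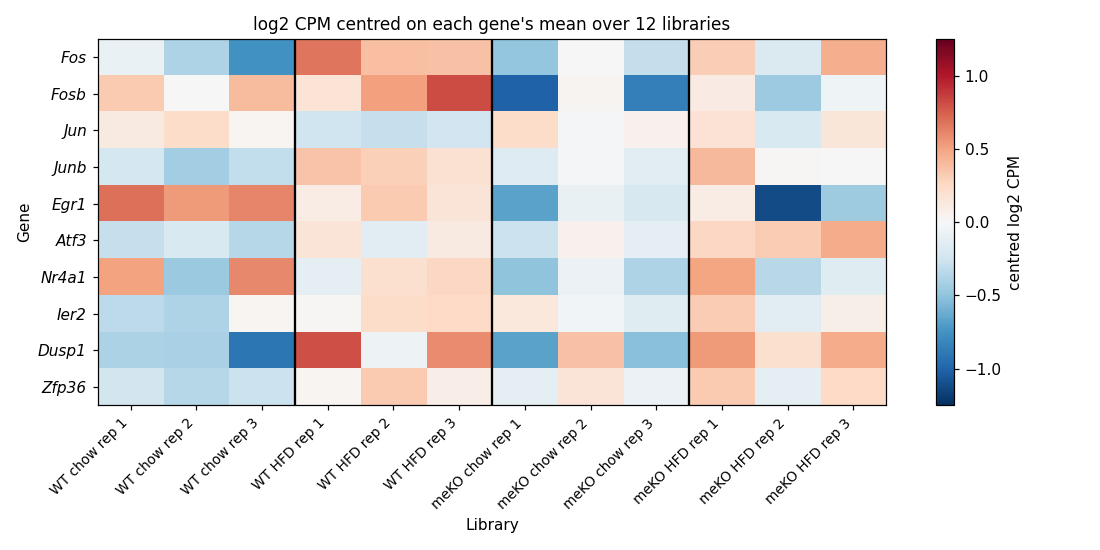
log2 CPM of each gene (rows) in each of the 12 libraries (columns, groups parted by black lines), centred on the gene's mean; red is above and blue below that mean, from -1.12 to 0.82. In meKO chow replicate 2 and meKO HFD replicate 1 most genes are redder than in the other libraries of the same group.

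Related genes were taken from lists chosen with earlier results of these data known. Of 25 other transcription factors of the primary response, 21 were measured, and in WT on HFD 1 rose (Klf4, 0.73 ± 0.24, SE; edgeR adjusted p = 0.0467) and 1 fell (Egr2, -0.39 ± 0.12; 0.0353), with a median log2 fold change of 0.06. Among all genes 9.5% rose and 11.8% fell in this contrast. Of 25 other feedback regulators, 24 were measured, 2 rose and 1 fell, shares no higher than those of all genes, with a median of 0.25. Rgs1, a regulator of G protein signaling, went from 228 ± 7.76 to 469 ± 117 CPM (SD, n = 3; 1.04 ± 0.22, SE; edgeR adjusted p = 0.0129) and the kinase gene Plk3 from 1.98 to 3.91 CPM (edgeR adjusted p = 0.0443; 0.0522 with the length and GC correction). Zfp36l1, a paralogue of Zfp36, fell by 0.64 on the log2 scale (edgeR adjusted p = 0.0228). In meKO edgeR called 0 genes of both lists (4 and 7 at an unadjusted p under 0.05; DESeq2 called 0 and 2, limma-voom 0 and 0, quality weights 0 and 2).

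Of the kinases and factors upstream, 31 were measured, of which 10 fell and 0 rose on HFD in WT and 21 did not pass, with a median of -0.32, while 11.8% of all genes fell. In meKO edgeR called 0 of the 31 (5 at an unadjusted p under 0.05; DESeq2, limma-voom and quality weights 0 each), with a median of -0.11. The smallest p-values were those of Mrtfb, a cofactor of serum response factor (-0.77 ± 0.16, SE; edgeR adjusted p = 0.0132), Map2k7, the kinase kinase of JNK (-0.55 ± 0.13; 0.0185), and Rps6ka3, a kinase below ERK (-0.56 ± 0.14; 0.0206). With the length and GC correction 5 of the 31 fell, where 12.9% of all genes passed in either direction. Their median was then -0.22, and Rps6ka3 missed the threshold (edgeR adjusted p = 0.0547). Counts for this list with single libraries left out were not taken. Of 9 heat shock genes, which respond to protein stress, 3 rose in WT, against 9.5% of all genes (Hspb1 1.73 ± 0.44, SE, edgeR adjusted p = 0.0214, or 0.0592 with the length and GC correction; Hsp90aa1 0.63 ± 0.16, 0.0217; Hspa1a 1.31 ± 0.43, 0.0495) while 0 fell and 6 did not pass. Their median was 0.35 in WT and 0.51 in meKO, where edgeR called 0 of 9 (3 at an unadjusted p under 0.05; DESeq2 1, limma-voom 0, quality weights 3). Hspb1 was at the low end of detection, at 0.423 ± 0.284 CPM in WT chow and 1.4 ± 0.23 CPM in WT HFD (SD, n = 3). With the length and GC correction 3 of the 9 heat shock genes rose in WT, Hspb1 not among them. There 12.9% of all genes passed in either direction. The part of either list in the values of the immediate early genes was not tested.

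The genes whose centred profile lay nearest to the mean profile of the 10 over the 12 libraries, among 11490 other genes of at least 1 CPM, were Clic4, Ripk2, Siah1a, Peli1 and Btg2. Their root mean square differences were 0.117, 0.121, 0.137, 0.138 and 0.139 on the log2 scale, against a median of 0.321 over all ranked genes and 0.209 for a gene that does not vary. Ripk2, a kinase of NOD receptor signaling, passed on diet in WT (0.45, edgeR adjusted p = 0.0241), and the other 4 did not. Within the list, Junb and Zfp36 lay closest to the mean of the other 9 genes (both 0.186) and Egr1 farthest (0.54).

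Markers of other cells were followed because bulk RNA cannot tell fewer cells of a type from less RNA per cell. Of 6 markers of resident large peritoneal macrophages all were measured and 0 passed on diet in WT in edgeR (1 at an unadjusted p under 0.05; DESeq2, limma-voom and quality weights 1 each), while their summed level was 262 to 776 CPM in WT chow, 1090 to 1760 in WT HFD, 506 to 1080 in meKO chow and 652 to 1590 in meKO HFD. Most of that sum is Cd5l, with a mean of 384 CPM in WT chow and 1250 CPM in WT HFD. Vsig4 (152 and 182), Icam2 (14.5 and 18.4) and Gata6 (2.2 and 2.96) also had higher means on HFD. Timd4 (20.7 and 13.2) and Selp (13.5 and 6.34) had lower means on HFD. Averaged over genotypes, edgeR called 2 of the 6 higher and 0 lower, where 14.9% of all genes rose. With the length and GC correction it called 1 higher and 0 lower in that average, where 24.2% of all genes passed in either direction. Of 7 markers of mesothelium and fibroblasts, 2 rose in WT (Krt19 and Dcn), with summed levels of 42.3 to 70.5, 73.4 to 114, 43.2 to 77.2 and 88.9 to 114 CPM in the same order. Of 8 neutrophil markers 4 were measured and 2 rose (S100a8, 0.76, and S100a9, 1.48), neither of which passed with the length and GC correction (0.10, edgeR adjusted p = 0.636, and 0.80, 0.182), with summed levels of 9.08 to 15.6, 18.5 to 20, 16.6 to 20.8 and 18.4 to 33.2 CPM. Of 6 mast cell markers, all measured, 1 fell in WT (Kit, -1.13, edgeR adjusted p = 0.0209), with summed levels of 211 to 253, 200 to 232, 57 to 353 and 198 to 291 CPM. Of 7 T and NK cell markers, all measured, edgeR called 0 (0 at an unadjusted p under 0.05; DESeq2 and limma-voom 0, quality weights 2), with summed levels of 7.36 to 20.9, 12.1 to 13.7, 10.9 to 11.9 and 15.5 to 19.3 CPM. Of 5 eosinophil markers 2 were measured and edgeR called 0 (0 at an unadjusted p under 0.05 and 0 by the other 3 tools), with summed levels of 17.9 to 25.5, 13.2 to 18.4, 21 to 52.9 and 17.9 to 36.6 CPM. In meKO against WT, S100a9 was called higher on chow (3.13, edgeR adjusted p = 0.00348) and on HFD (2.15, edgeR adjusted p = 0.0229). Both calls held with the length and GC correction (edgeR adjusted p = 0.0242 and 0.0313), but not in every tool. Of the 4 neutrophil markers measured, DESeq2 called 0 on chow and 1 on HFD, and limma-voom 1 and 0. Quality weights called 3 and 1, where they called 32.8% and 1.04% of all genes. Averaged over diets, 2 of the 4 neutrophil markers were called higher, where 0.17% of all genes passed in either direction. S100a9 rested on few counts, with a lowest of 6 in a library. No measured marker of these lists was at 0 in any library. The part of these cells in the values of the immediate early genes was not tested.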

How the data were processed

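RNA was measured by sequencing in 12 libraries of thioglycolate-elicited macrophages. The values the authors deposited are raw counts, whole numbers for each gene in each library. The submitters' processing notes name mm10 and DESeq2 without their role; the aligner, counting tool and strand setting are not given in the sources used here. Column names were matched to sample titles, and 186 genes with an identifier but no symbol (0.44% of counts) stayed in the fit. A treatment that all mice shared and 1 marker list are not reported here. Per the labels, Trizol was used for RNA and a TruSeq kit for the libraries.

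The members and lists were chosen with earlier results of these data known. All 12339 genes were fitted in edgeR 4.0.16 (R 4.3.3) with TMM factors, filterByExpr (which kept every gene) and robust dispersions. One model of 4 group means over all 12 libraries was tested by quasi-likelihood. Tests were two-sided, with Benjamini-Hochberg adjustment over all genes and a threshold of 0.05, in 7 contrasts. SE is the size of the log2 fold change divided by the square root of F. Genes named beside the 10 were at most 3 for a list in a contrast, ranked by p among those that passed, the 5 nearest profiles, Prkce and Lyz2; markers and overlapping genes were named after their values were seen. log2 CPM used a prior count of 2. Alternatives were scaling to library totals or by median-of-ratios factors, a filter of 10 counts per library or none, limma-voom (limma 3.58.1) without and with library quality weights, DESeq2 1.42.0, non-robust dispersions, the compared libraries alone, each library left out, and offsets from splines (5 degrees of freedom each) on transcript length and GC content, known for 93.5% of genes (GENCODE M21). The scripts were tested on simulated data.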

Additional observations from a re-analysis of the deposited data

How the results depend on the processing

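Over 70 fold changes (10 genes in 7 contrasts) and 22 alternatives, 1411 of 1510 values kept their direction and their side of the threshold, 30 lost it, 31 gained it and 38 changed sign, of which 0 passed the test. The number of the 10 genes called moved most for diet in WT: 8 with quality weights (6411 of all 12339 genes), 2 with the length and GC correction (1587), and 0 (without WT chow replicate 2; 319) to 6 when 1 library was left out. The 6 arose without WT chow replicate 3 (4921 of all genes), meKO HFD replicate 1 (2994) or meKO HFD replicate 2 (3081), against 2634 with all libraries. DESeq2 called 1 for genotype on chow, 1 for diet in meKO and 1 for genotype averaged over diets. Quality weights called 3 for genotype averaged over diets, 1 for genotype on HFD, 1 for genotype on chow and 1 for diet in meKO. With 1 library left out the count was 0 to 1 for genotype on chow (1 without WT chow replicate 3, where 2543 of all genes were called, against 10 with all libraries). It was 0 to 1 averaged over diets (1 without meKO HFD replicate 1, where 71 were called, and 1 without WT chow replicate 3, where 1400 were, against 21). The cause was not tested.

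Sign changes were as follows, on the log2 scale. With library totals Zfp36 had -0.004 for genotype on HFD and Junb -0.0037 for genotype averaged over diets. With quality weights Fos had -0.01 for genotype on chow, Jun 0.03 for diet in meKO and Junb -0.03 for genotype averaged over diets. With the length and GC correction Fos had -0.03 for genotype on chow, Zfp36 -0.02 for genotype on HFD, Jun 0.05 and Egr1 0.0046 for diet in meKO, and Junb -0.03 and Ier2 -0.03 for genotype averaged over diets. With 1 library left out, the lowest and highest values of those that changed sign were Fos -0.01 to 0.33, Jun -0.09 to 0.04 and Dusp1 -0.03 to 0.55 for genotype on chow. They were Nr4a1 -0.37 to 0.08, Ier2 -0.2 to 0.02, Dusp1 -0.3 to 0.1 and Zfp36 -0.08 to 0.13 for genotype on HFD. They were Nr4a1 -0.43 to 0.02 for diet in WT. They were Jun -0.1 to 0.07, Egr1 -0.45 to 0.16 and Ier2 -0.02 to 0.21 for diet in meKO. They were Fosb -0.06 to 0.6 and Egr1 -0.03 to 0.58 for genotype by diet interaction. They were Fos -0.14 to 0.03, Junb -0.03 to 0.08 and Dusp1 -0.06 to 0.23 for genotype averaged over diets. They were Nr4a1 -0.05 to 0.19 for diet averaged over genotypes. The cause was not tested.

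Fosb, Egr1 and Nr4a1 rested on few counts, which limits their precision; counting error is part of the spread the tests use. No paired analysis was possible because the labels give no replicate numbers. Where a library was left out, its group kept a pair of libraries and the spread was pooled over groups.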
